A study of Mus musculus with 10 samples.

Results

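Genes of cholesterol and fatty acid synthesis, with the genes that regulate them or carry sterol out of the cell, were followed in mouse CD4-positive spleen cells of the strains NOD and B10 before and after stimulation. The genes were chosen as a list of 35 symbols. Of these, 32 were among the 19938 genes of the deposited table that have a probe set with 1 gene symbol. Acat2 and Nr1h2 were not found among them, and Acsl3 was found only on a probe set that also names another gene, so these 3 are not analysed here. Where a gene had several probe sets, the brightest on average was used. Fdft1, Idi1 and Acaca had 2 probe sets each.

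The cells came from 8-week-old female mice. They were taken with magnetic CD4 beads and measured on 10 Affymetrix arrays, 1 array per sample. The 4 groups were NOD cells stimulated with PMA at 10 ng/ml and ionomycin at 1 uM for 4 h (NOD T1, 2 arrays), unstimulated NOD cells (NOD T0, 3 arrays), B10 cells stimulated in the same way (B10 T1, 2 arrays) and unstimulated B10 cells (B10 T0, 3 arrays). The labels give the genotypes as NODk and B10Br, and name T0 the basal state, while the treatment text can also be read as culture of the unstimulated cells over the same hours. PMA, a phorbol ester, and ionomycin, a calcium carrier, stand in for signalling from the T cell receptor and CD28 and do not need the receptor. Arrays of 1 group are labelled biological replicates, without the animal of each, so p-values measure the spread between these samples. T1 replicate 1 of either strain is not analysed here.

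Cells make cholesterol from acetyl-CoA through mevalonate, isoprenoid units, squalene and lanosterol. The transcription factors SREBP-1 and SREBP-2 turn on the enzymes of this route and of fatty acid synthesis. When sterol is plentiful, INSIG proteins hold SREBP and its escort SCAP in the endoplasmic reticulum. When sterol accumulates, liver X receptors (LXR) turn on sterol efflux pumps. T cells that have been activated are known to raise sterol synthesis and to lower LXR target genes ahead of division.

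Values are log2 RMA intensities, so a difference of 1 is a doubling of signal. Array medians lay between 6.18 and 6.23. Pairs of arrays correlated at 0.985 to 0.993 (Pearson's r) inside a group and at 0.943 to 0.984 across groups. All 32 genes had a mean over all arrays above the median gene (6.31). Some group means lay below that level: Abca1 in NOD T1 (5.86) and B10 T1 (6.08), Pmvk in NOD T1 (6.28) and Lss in B10 T0 (6.26). Detection calls are not used here, and a fold change near background is understated by an unknown amount. The CD4 T cell markers were bright in all groups, with Cd4 at a mean of 9.23 in NOD T1, 10.95 in NOD T0, 9.64 in B10 T1 and 11.09 in B10 T0. Red cell precursor markers set the strains and the B10 arrays apart. The mean of 5 erythroid markers was 10.02 to 10.49 in NOD T1 and 9.87 to 10.43 in NOD T0, against 7.42 to 9.21 in B10 T1 and 7.07 to 9.15 in B10 T0, and the highest B10 array of either state was replicate 3. Counts of called genes are therefore also given without both B10 arrays of replicate 3.

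Stimulation split the genes into a group that rose and a group that fell in both strains. In NOD, 12 of the 32 genes rose and 10 fell, where 16.1% of all genes rose and 19.5% fell (35.5% called in either direction; limma, Benjamini-Hochberg over all genes, adjusted p under 0.05). In B10, 14 rose and 10 fell, where 13.7% of all genes rose and 18.1% fell (31.8% in either direction). Both strains shared 12 of the genes that rose and 7 of those that fell, and 0 genes were called in opposite directions. How many of all genes were called alike in both strains was not computed. The shared counts, here and with arrays omitted, are therefore not read as a trait of the list. The median difference of the 32 genes was 0.04 in NOD and 0.07 in B10, beside 0.08 and 0.03 over all genes. With both B10 arrays of replicate 3 omitted, 11 genes rose and 10 fell in NOD, 13 rose and 5 fell in B10, and 11 rises and 4 falls were shared. That omission ended the B10 calls of Mvd, Tm7sf2, Ebp, Sc5d, Srebf1 and Elovl6 and the NOD call of Fdps (0.35, adjusted p = 0.0526). Setting all arrays to a common 75th percentile moves the median difference of all genes in NOD from 0.08 to 0.21, and 14 genes then rose and 9 fell in NOD. Under that scaling all genes split into 5393 higher and 3145 lower in NOD, beside 3201 and 3884 as deposited, so directions are relative to the bulk of genes.

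**Figure D1:**
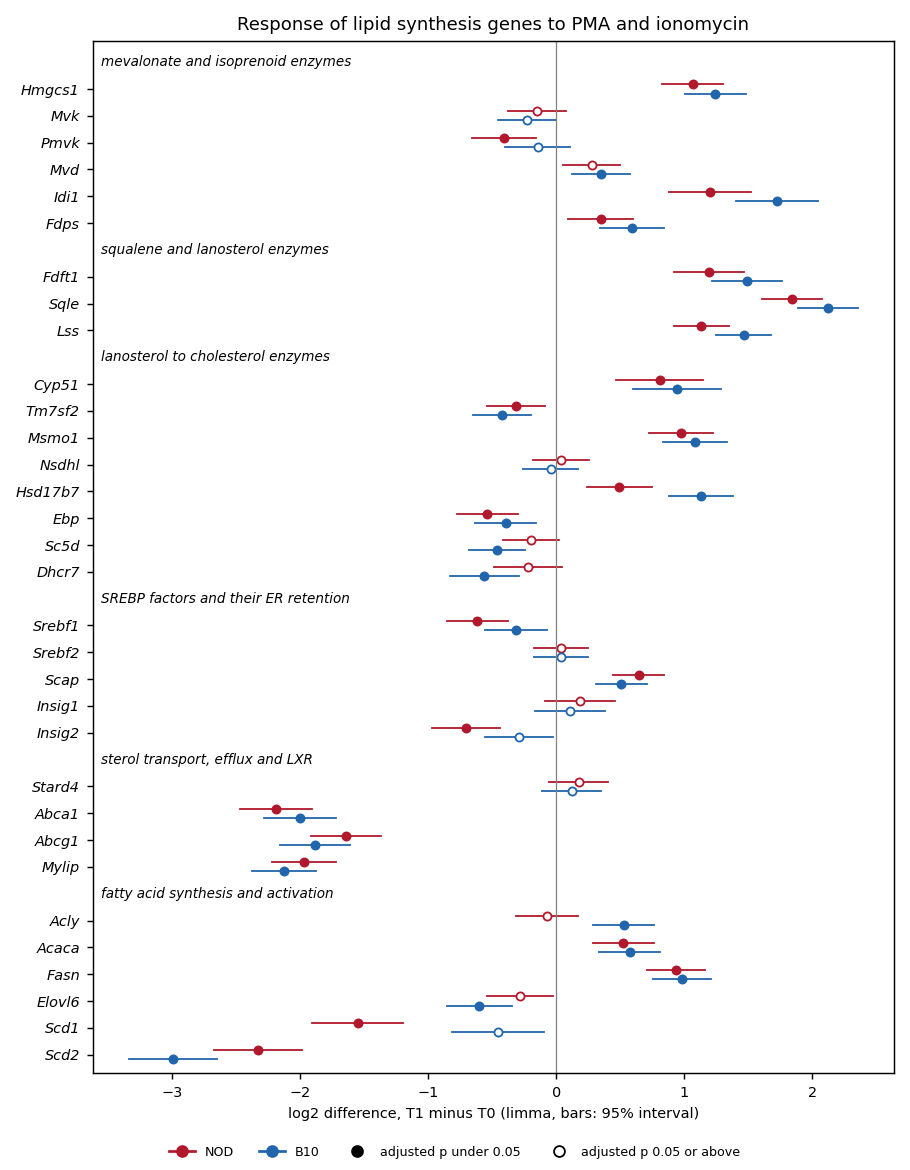
Log2 difference between T1 and T0 (x axis) for each of the 32 genes, grouped by role, in NOD (red, upper) and B10 (blue, lower). Points are limma estimates from 2 stimulated and 3 unstimulated arrays per strain, bars are 95% intervals, and filled points have an adjusted p under 0.05. Sqle reached 1.84 in NOD and 2.12 in B10 on the right, and Scd2 reached -2.33 and -3.00 on the left.

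The enzymes that make and close squalene rose strongly in both strains. Sqle, squalene epoxidase, which adds the oxygen to squalene, had 9.59 and 9.60 in NOD T1, against 7.86, 7.63 and 7.77 in NOD T0. In B10 it had 9.38 and 9.39 at T1, against 7.13, 7.26 and 7.39 at T0. Stimulated and unstimulated arrays lay far apart in both strains. The rise was 3.58-fold in NOD (log2 difference 1.84 ± 0.11, SE, adjusted p = 5.46e-08) and 4.36-fold in B10 (2.12 ± 0.11, adjusted p = 1.77e-08).

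Fdft1, squalene synthase, makes squalene from farnesyl pyrophosphate. It had 9.32 and 9.66 in NOD T1, against 8.46, 8.21 and 8.21 in NOD T0. B10 cells had 9.37 and 9.16 at T1, against 7.82, 7.80 and 7.71 at T0. The rise was 2.29-fold in NOD (adjusted p = 7.3e-06) and 2.81-fold in B10 (adjusted p = 1.08e-06), and the second probe set of the gene gave log2 differences of 1.19 and 1.41. Lss, lanosterol synthase, closes the sterol ring. Its level was 7.64 and 7.53 in NOD T1, against 6.46, 6.43 and 6.47 in NOD T0. The B10 arrays gave 7.69 and 7.76 at T1, against 6.23, 6.16 and 6.39 at T0. All 3 enzymes of this step thus rose in both strains, Lss by 1.13 ± 0.10 in NOD and 1.46 ± 0.10 in B10 (log2, adjusted p = 1.48e-06 and 1.65e-07).

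Upstream, the enzymes of the mevalonate and isoprenoid steps moved unevenly. Hmgcs1, which makes HMG-CoA, had 10.21 and 10.15 in NOD T1, against 9.13, 9.17 and 9.04 in NOD T0. Its B10 T1 arrays had 10.29 and 10.14, against 8.81, 8.98 and 9.12 in B10 T0. It rose 2.10-fold in NOD (1.07 ± 0.11, adjusted p = 5.9e-06) and 2.37-fold in B10 (1.24 ± 0.11, adjusted p = 1.54e-06). Idi1, the isomerase of isopentenyl pyrophosphate, had 9.73 and 9.97 in NOD T1, against 8.79, 8.49 and 8.66 in NOD T0. Its B10 values were 10.18 and 9.78 at T1, against 8.08, 8.41 and 8.27 at T0. These are rises of 2.30-fold in NOD (adjusted p = 2.83e-05) and 3.31-fold in B10 (adjusted p = 1.17e-06). The second Idi1 probe set gave log2 differences of 1.09 and 1.63.

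The other enzymes of these steps had smaller values. Fdps, farnesyl pyrophosphate synthase, averaged 8.63 ± 0.24 in NOD T1 (SD, n = 2) and 8.28 ± 0.12 in NOD T0 (n = 3), and 8.76 ± 0.06 in B10 T1 and 8.16 ± 0.05 in B10 T0. It rose by 0.35 in NOD (adjusted p = 0.0342), a call that ended without NOD T1 replicate 3 (0.18) or NOD T0 replicate 2 (0.28), and by 0.59 in B10 (adjusted p = 0.00132). Mvd, which makes isopentenyl pyrophosphate, rose in B10 (0.35 ± 0.10, adjusted p = 0.0198), and omission of any B10 array except T0 replicate 1 ended that call (0.31 to 0.36). Its NOD value was 0.28 ± 0.10 (adjusted p = 0.055), with 0.20 to 0.35 on omission of single arrays, and passed on a common 75th percentile (0.40, adjusted p = 0.0202), among genes above the median mean (adjusted p = 0.0282) and with a random replicate block (adjusted p = 0.0499). Both mevalonate kinases stood apart from this direction. Mvk had values of -0.15 in NOD (adjusted p = 0.29) and -0.23 in B10 (adjusted p = 0.128), and the B10 value passed without B10 T0 replicate 3 (-0.31). Pmvk fell in NOD (-0.41 ± 0.12, adjusted p = 0.0144), not without NOD T1 or T0 replicate 3 (-0.35 each), and had -0.15 in B10 (adjusted p = 0.415).

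Among the 8 enzymes after lanosterol, 3 rose in both strains, and the rise did not follow the order of the steps. Cyp51, the demethylase that acts on lanosterol, had 8.78 and 8.55 in NOD T1, against 8.06, 7.74 and 7.77 in NOD T0. In B10 T1 it had 9.20 and 8.86, against 7.86, 8.33 and 8.06 in B10 T0. The rise was 1.75-fold in NOD (adjusted p = 0.00126) and 1.93-fold in B10 (adjusted p = 0.000365). Msmo1, the C4 methyl oxidase, had 10.56 and 10.71 in NOD T1, against 9.73, 9.65 and 9.59 in NOD T0. Its B10 T1 arrays had 10.60 and 10.32, against 9.30, 9.52 and 9.30 in B10 T0, and it rose by 0.98 ± 0.12 in NOD and 1.08 ± 0.12 in B10. Hsd17b7, the ketoreductase that completes C4 demethylation, rose 1.41-fold in NOD (adjusted p = 0.0047) and 2.19-fold in B10 (adjusted p = 5.84e-06).

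The other 5 enzymes of this stretch, before and after Hsd17b7 in the route, were not called higher in either strain. Ebp, the sterol isomerase, had 7.77 and 7.88 in NOD T1, against 8.47, 8.22 and 8.41 in NOD T0. B10 cells had 8.16 and 7.91 at T1, against 8.45, 8.41 and 8.43 at T0. It fell in NOD (-0.54 ± 0.11, adjusted p = 0.00175) and in B10 (-0.40 ± 0.11, adjusted p = 0.0134), though in B10 not without T1 replicate 3 (-0.27). Tm7sf2, the reductase that follows Cyp51, fell by 0.31 in NOD (adjusted p = 0.0319) and by 0.42 in B10 (adjusted p = 0.00625). Its NOD call ended on a common 75th percentile (-0.19) and without T1 replicate 2 or 3 or T0 replicate 2 or 3 (-0.32 to -0.27), and its B10 call without T1 replicate 3 (-0.37). Sc5d, the desaturase, and Dhcr7, which makes cholesterol from its last precursor, fell in B10 (-0.46 and -0.56, adjusted p = 0.00252 and 0.00292), where Sc5d had -0.42 and did not pass with both B10 arrays of replicate 3 omitted. In NOD they had -0.20 and -0.22 (adjusted p = 0.143 and 0.182). Nsdhl, the C4 decarboxylase that acts between Msmo1 and Hsd17b7, had 0.03 in NOD and -0.05 in B10, with 95% intervals of -0.18 to 0.25 and -0.26 to 0.17.

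**Figure D2:**
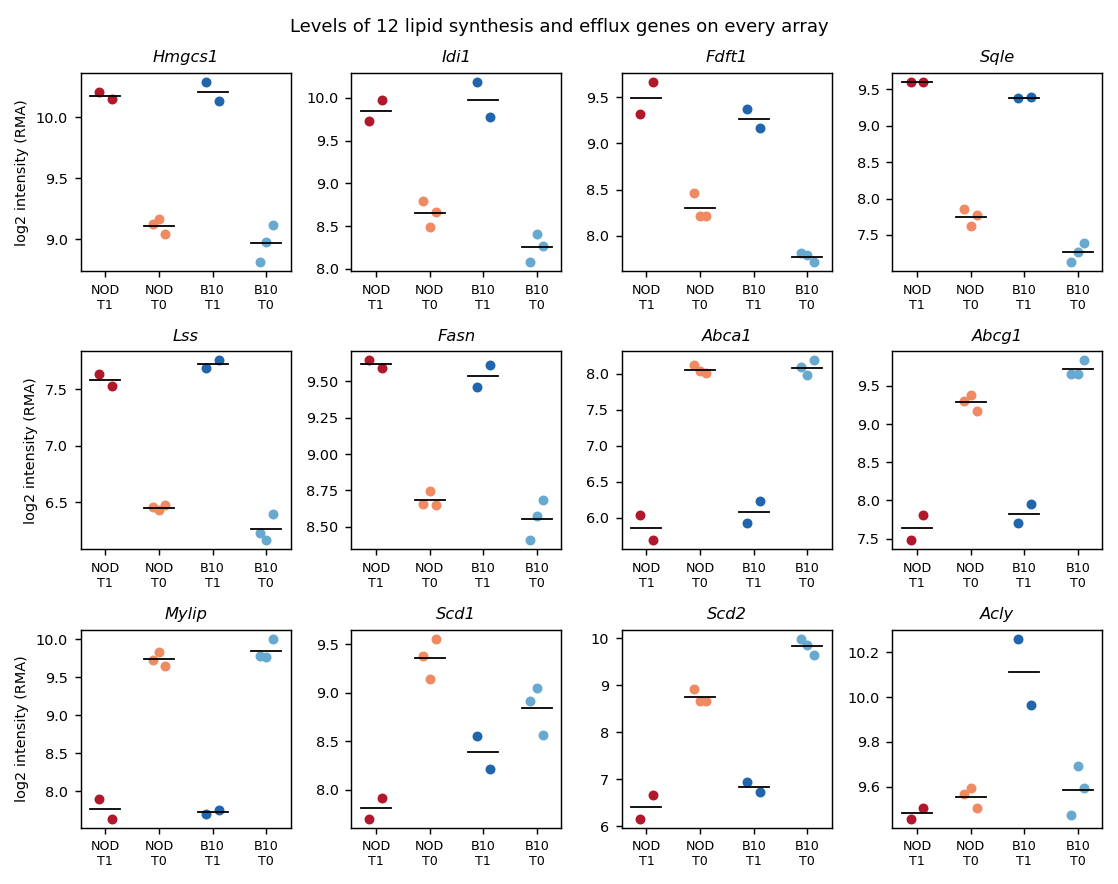
Log2 RMA intensity (y axis, own scale in each panel) of 12 genes on every array, by group; points are arrays and black lines group means. Hmgcs1, Idi1, Fdft1, Sqle, Lss and Fasn lay higher on all stimulated arrays than on all unstimulated arrays of the same strain, Abca1, Abcg1, Mylip, Scd1 and Scd2 lower, and Acly higher only in B10.

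Promoters of some genes that moved strongly in both strains are shown because SREBP acts with the factor NF-Y, which binds CCAAT boxes, on many of these genes. RefSeq promoters (assembly GRCm38.p6) were at hand for 25 of the 32 genes, matched by symbol, and the 250 bases before the start were searched on both strands. Sqle, Fdft1 and Scd2, among the genes that moved most, had no promoter at hand and are not shown. A CCAAT box (CCAAT) was found in 20 of the 25 genes (80%), beside 37.5% of all 27025 genes with a promoter. Those 27025 genes are not limited to the 19938 tested here and were not matched to the list by expression level. The box was found in genes of either direction, and whether it goes with direction was not tested. Scap, which rose in both strains, and Abca1, which fell in both, had a promoter without it. Genes with the box rose in both strains (Cyp51, Fasn, Hmgcs1, Hsd17b7, Idi1, Lss and Msmo1) or fell in both (Ebp, Tm7sf2, Srebf1 and Mylip). Dhcr7, Insig2, Mvd, Pmvk and Sc5d, called in a single strain, had it too. So did Mvk, Nsdhl, Srebf2 and Insig1, called in neither. An E-box (CACGTG) was found in 6 of 25 (24%), beside 6.86% of all genes. The sterol response element core (TCACNCCAC) was found in Hmgcs1 alone (4% of the 25, beside 1.22% of all genes), 137 to 129 bases before its start. A match says only that these letters are present. Among genes with a promoter that were called in both strains, the windows are those of the 5 largest rises and the 2 largest falls by the smaller response. Each holds all matches of the 3 motifs, in the gene's own direction with the motifs in capitals, where ATTGG is a CCAAT box on the other strand. Idi1, Lss, Hmgcs1, Msmo1 and Fasn rose, and Abca1 and Mylip fell. In Fasn, CCAAT boxes on opposite strands overlap, and in Abca1 the capitals are an E-box.
Idi1, chr13:8885546-8885605, plus strand: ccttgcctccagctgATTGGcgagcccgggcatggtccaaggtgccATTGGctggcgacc
Lss, chr10:76531528-76531562, plus strand: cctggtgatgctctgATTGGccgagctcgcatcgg
Hmgcs1, chr13:119690101-119690325, plus strand: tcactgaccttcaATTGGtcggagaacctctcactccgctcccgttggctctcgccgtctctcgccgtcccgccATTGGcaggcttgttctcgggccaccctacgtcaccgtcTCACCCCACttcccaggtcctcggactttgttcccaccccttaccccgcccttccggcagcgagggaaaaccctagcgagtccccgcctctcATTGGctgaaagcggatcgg
Msmo1, chr8:64733614-64733753, minus strand: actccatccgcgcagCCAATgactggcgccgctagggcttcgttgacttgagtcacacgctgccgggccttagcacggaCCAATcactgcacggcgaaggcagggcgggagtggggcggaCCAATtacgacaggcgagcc
Fasn, chr11:120824587-120824652, minus strand: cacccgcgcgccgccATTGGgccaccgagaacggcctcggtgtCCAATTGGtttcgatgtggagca
Abca1, chr4:53160022-53160057, minus strand: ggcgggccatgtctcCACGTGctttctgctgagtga
Mylip, chr13:45389537-45389694, plus strand: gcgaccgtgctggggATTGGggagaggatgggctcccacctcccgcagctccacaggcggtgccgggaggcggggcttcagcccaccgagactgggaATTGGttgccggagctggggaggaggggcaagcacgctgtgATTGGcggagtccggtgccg

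Of the 5 measured SREBP genes and regulators, 1 rose and 2 fell in NOD, and 1 rose and 1 fell in B10. Of all genes, 16.1% rose and 19.5% fell in NOD, and 13.7% rose and 18.1% fell in B10. Counts this small are not read as a trait of these regulators. Scap, the escort that carries SREBP out of the endoplasmic reticulum, had 8.87 and 8.84 in NOD T1, against 8.24, 8.24 and 8.14 in NOD T0. The B10 arrays gave 8.82 and 8.90 at T1, against 8.37, 8.28 and 8.39 at T0. It rose 1.56-fold in NOD (adjusted p = 9.89e-05) and 1.42-fold in B10 (adjusted p = 0.000662). Srebf2, which encodes the factor for sterol genes, had 0.04 ± 0.10 in both strains (adjusted p = 0.796 in NOD and 0.838 in B10), with a 95% interval of -0.17 to 0.24. Insig1, itself a known SREBP target, was at 10.59 and 10.95 in NOD T1, against 10.57, 10.64 and 10.54 in NOD T0. Its B10 T1 arrays had 10.74 and 10.51, against 10.38, 10.59 and 10.59 in B10 T0. Arrays overlapped in both strains, and neither difference passed (0.19 in NOD and 0.11 in B10, adjusted p = 0.275 and 0.614).

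Srebf1, which encodes the factor for fatty acid genes and is itself an LXR target, had 7.87 and 7.81 in NOD T1, against 8.49, 8.61 and 8.27 in NOD T0. It had 7.91 on both B10 T1 arrays, against 8.24, 8.15 and 8.28 in B10 T0. The fall was -0.62 ± 0.11 in NOD (adjusted p = 0.000628) and -0.31 ± 0.11 in B10 (adjusted p = 0.0451). The B10 call ended on omission of any 1 of the B10 arrays or NOD T0 replicate 1 (-0.35 to -0.29) and on a common 75th percentile (-0.25). Insig2, the INSIG form that does not depend on SREBP, fell in NOD (-0.71 ± 0.12, adjusted p = 0.000489). In B10 its value was -0.29 ± 0.12 (adjusted p = 0.096), and it passed without B10 T0 replicate 2 (-0.39).

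Genes of sterol efflux fell in both strains, among the largest changes of the list. Abca1, the pump that loads cholesterol onto apolipoprotein A-I, had 6.04 and 5.69 in NOD T1, against 8.12, 8.04 and 8.01 in NOD T0. Its B10 values were 5.93 and 6.24 at T1, against 8.09, 7.98 and 8.19 at T0. The fall was -2.19 ± 0.13 in NOD (adjusted p = 5.57e-08) and -2.00 ± 0.13 in B10 (adjusted p = 1.06e-07). Abcg1, which passes cholesterol to HDL, had 7.48 and 7.81 in NOD T1, against 9.30, 9.38 and 9.17 in NOD T0. In B10 T1 it had 7.71 and 7.95, against 9.65, 9.66 and 9.83 in B10 T0. It fell by 1.64 in NOD and by 1.89 in B10 on the log2 scale (adjusted p = 4.72e-07 and 1.48e-07).

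Mylip, which encodes the ubiquitin ligase IDOL that degrades lipoprotein receptors, had 7.89 and 7.64 in NOD T1, against 9.73, 9.84 and 9.65 in NOD T0. B10 cells had 7.70 and 7.75 at T1, against 9.78, 9.77 and 10.01 at T0. The fall was -1.98 ± 0.12 in NOD and -2.13 ± 0.12 in B10 (adjusted p = 5.39e-08 and 2.69e-08). Abca1, Abcg1 and Mylip are known LXR targets. Stard4, a carrier of cholesterol within the cell, had values of 0.18 in NOD and 0.12 in B10 (adjusted p = 0.226 and 0.475), and passed in NOD on a common 75th percentile (0.30).

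Macrophages express Abca1 and Abcg1 too, and markers of several, not all, other cell types fell with stimulation. The monocyte and macrophage list had 9 measured markers, of which 8 fell in NOD and 7 in B10, and 0 rose. Their mean level was 7.15 to 7.24 in NOD T1 and 8.20 to 8.43 in NOD T0, and 6.75 to 6.96 in B10 T1 and 7.47 to 7.90 in B10 T0. The defining markers Csf1r and Adgre1 averaged 6.76 and 6.36 in NOD T1 and 8.53 and 8.29 in NOD T0. In B10 they averaged 6.47 and 5.70 at T1 and 8.04 and 7.35 at T0. Of 8 B cell markers, 6 fell and 0 rose in NOD and 5 fell and 1 rose in B10, with mean levels of 7.14 on both NOD T1 arrays and 8.49 to 8.80 in NOD T0, and 7.31 to 7.36 in B10 T1 and 8.22 to 8.49 in B10 T0. The 6 measured markers of CD4 T cells included 4 that fell in either strain, and 1 that rose in NOD. Neutrophil markers fell for 6 of 8 in NOD and 4 of 8 in B10, and dendritic cell markers for 4 of 6 in NOD and 3 of 6 in B10. NK cell markers fell for 2 of 5 and platelet markers for 1 of 3 in each strain. CD8 T cell markers fell for 1 of 2 in NOD and 2 of 2 in B10. Of 5 erythroid markers, 0 rose and 0 fell in either strain. Of all genes, 19.5% fell in NOD and 18.1% in B10. The part of these cells in the falls of the lipid genes was not tested, and in sorted populations fewer cells of a type and less RNA per cell cannot be told apart.

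**Figure D3:**
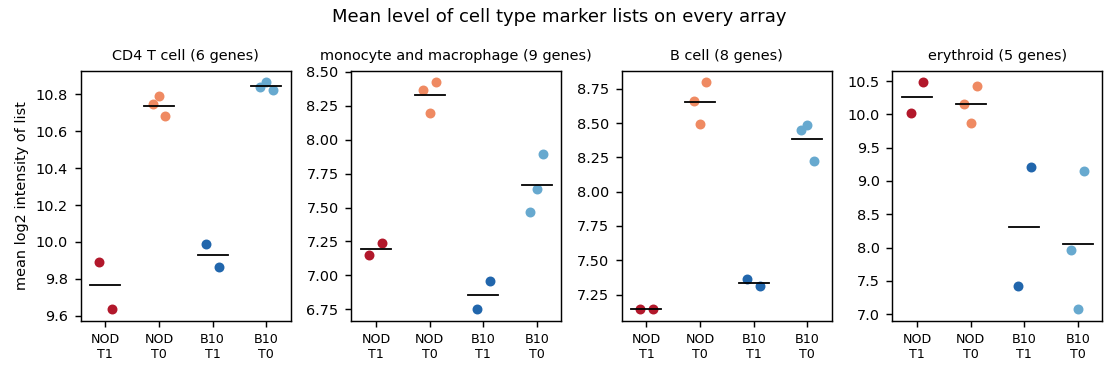
Mean log2 intensity (y axis, own scale in each panel) of 4 marker lists on every array, by group; points are arrays and black lines group means. The lists of CD4 T cell, monocyte and macrophage, and B cell markers lay lower on the stimulated arrays, and erythroid markers lay at 9.87 or above on all NOD arrays and at 9.21 or below on all B10 arrays.

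Among the 6 measured genes of fatty acid synthesis and activation, Fasn and Acaca rose in both strains. Scd2 fell in both, Scd1 was called lower in NOD only, and Acly and Elovl6 were called in B10 only. Fasn, fatty acid synthase, had 9.64 and 9.59 in NOD T1, against 8.65, 8.74 and 8.65 in NOD T0. The B10 arrays gave 9.46 and 9.61 at T1, against 8.41, 8.57 and 8.68 at T0. It rose 1.91-fold in NOD (adjusted p = 1.4e-05) and 1.98-fold in B10 (adjusted p = 8.62e-06). Acaca, acetyl-CoA carboxylase, which makes the malonyl-CoA that Fasn uses, had 8.17 and 8.03 in NOD T1, against 7.68, 7.51 and 7.53 in NOD T0. Its B10 values were 8.22 and 8.19 at T1, against 7.51, 7.59 and 7.79 at T0. It rose by 0.52 and 0.57 (adjusted p = 0.00198 and 0.00102), and its second probe set gave 0.47 and 0.59.

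The stearoyl-CoA desaturases, which make monounsaturated fatty acids and are LXR and SREBP-1 targets, did not rise. Scd2 had 6.16 and 6.67 in NOD T1, against 8.92, 8.66 and 8.66 in NOD T0. In B10 T1 it had 6.94 and 6.72, against 9.99, 9.86 and 9.64 in B10 T0. The fall was -2.33 ± 0.16 in NOD (5.03-fold, adjusted p = 1.73e-07) and -3.00 ± 0.16 in B10 (7.98-fold, adjusted p = 2.23e-08), the largest change of the 32 genes in either strain. Scd1 had 7.70 and 7.92 in NOD T1, against 9.38, 9.14 and 9.56 in NOD T0. B10 cells had 8.55 and 8.22 at T1, against 8.91, 9.05 and 8.56 at T0. NOD arrays were far apart (-1.55 ± 0.16, adjusted p = 7.87e-06), and B10 arrays lay close (-0.46 ± 0.16, adjusted p = 0.052). The B10 value passed without B10 T1 replicate 2 (-0.62), B10 T0 replicate 3 (-0.59) or NOD T0 replicate 2 or 3 (-0.46). Without B10 T1 replicate 3 it was -0.29 (adjusted p = 0.379). Scd1 and Scd2 are close paralogues, and how far their probes tell them apart was not tested. Elovl6, which lengthens palmitate, fell in B10 (-0.60 ± 0.12, adjusted p = 0.00131) but not with both B10 arrays of replicate 3 omitted (-0.40), and had -0.28 in NOD (adjusted p = 0.0796), which passed without B10 T1 replicate 2 or 3 at the same value.

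Acly, which makes cytosolic acetyl-CoA from citrate for both routes, had 9.46 and 9.50 in NOD T1, against 9.57, 9.59 and 9.51 in NOD T0. The B10 arrays gave 10.26 and 9.96 at T1, against 9.47, 9.69 and 9.59 at T0. It rose in B10 (0.53 ± 0.11, adjusted p = 0.00217) and had -0.07 ± 0.11 in NOD (adjusted p = 0.636).

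Counted over arrays, 14 genes lay higher on both NOD T1 arrays than on all NOD T0 arrays and 14 lay lower, where 31% and 25.1% of all genes did so (56% in either direction). In B10, 14 lay higher and 13 lower, where 26.8% and 25.6% of all genes did (52.4% in either direction). The separation was in the same direction in both strains for 13 genes that lay higher and 12 that lay lower. The share of all genes separated alike in both strains was not computed, so this joint count is not read as a trait of the list. Pearson's r between the NOD and B10 responses was 0.959 across the 32 genes and 0.912 across all genes. The responses come from separate arrays and the points share probe design, so this is a description only.

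Other genes of lipid metabolism were taken from lists that hold none of the 32. Of 14 measured genes of sterol synthesis, uptake and trafficking, 1 rose and 9 fell in NOD (median -0.69), and 3 rose and 10 fell in B10 (median -0.63). Tmem97, a sterol-regulated membrane protein, rose by 1.91 and 1.87, while Ggps1, which makes geranylgeranyl pyrophosphate and so draws isoprenoid away from sterol, fell (-1.54 in NOD and -1.31 in B10). Osbp, an oxysterol binding protein, and Lpin1, a phosphatidate phosphatase, fell as well (-1.22 and -1.18 in NOD, -0.94 and -1.66 in B10). Of 18 genes of fatty acid synthesis, elongation and desaturation, 8 rose and 2 fell in NOD, and 7 rose and 2 fell in B10. Acsl4, which activates polyunsaturated fatty acids, rose by 1.66 and 1.56, Slc25a1, the citrate carrier of mitochondria, by 1.43 and 1.42, and Hsd17b12, an elongation reductase, by 0.91 and 1.49. Of 10 genes of fatty acid oxidation, 1 rose and 7 fell in NOD, and 1 rose and 4 fell in B10. The counts of these lists stand beside 16.1% of all genes that rose and 19.5% that fell in NOD. In B10 the shares were 13.7% and 18.1%. Hadhb, a subunit of the mitochondrial trifunctional protein, fell by 2.07 in NOD and by 2.14 in B10.

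The strains were then compared within each state. At T1, 0 of the 32 were higher and 1 was lower in NOD than in B10, where 3.6% of all genes were called (1.77% higher, 1.83% lower). That gene was Acly (log2 difference, NOD minus B10, -0.63 ± 0.12, adjusted p = 0.0143), with 9.46 and 9.50 in NOD T1 against 10.26 and 9.96 in B10 T1. The call ended without NOD T1 replicate 3 (-0.66) or B10 T1 replicate 2 (-0.48), and with only the arrays of the groups compared (-0.63, adjusted p = 0.116). It also ended with the erythroid marker mean as a covariate (-0.46), a mean that itself separates all NOD from all B10 arrays. With both B10 arrays of replicate 3 omitted it was again the 1 gene called (-0.78, adjusted p = 0.012). Insig2 had 7.89 and 7.60 in NOD T1, against 8.32 and 8.20 in B10 T1, and its difference did not pass (-0.52 ± 0.13, adjusted p = 0.054). Without NOD T1 replicate 2 (-0.66) or B10 T0 replicate 2 (-0.52) it passed.

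At T0, 2 of the 32 genes were higher and 4 were lower in NOD, where 5.79% of all genes were called (3.44% higher, 2.35% lower). The genes that were higher belong to adjacent steps. Sqle had 7.86, 7.63 and 7.77 in NOD T0, against 7.13, 7.26 and 7.39 in B10 T0 (0.49 ± 0.10, adjusted p = 0.0092). Fdft1 had 8.46, 8.21 and 8.21 in NOD T0, against 7.82, 7.80 and 7.71 in B10 T0 (0.52 ± 0.11, adjusted p = 0.0162). At T1 their NOD values were still above B10 by 0.21 and 0.23, which did not pass (adjusted p = 0.419 and 0.47).

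Scd2 had the largest strain difference at T0, with 8.92, 8.66 and 8.66 in NOD against 9.99, 9.86 and 9.64 in B10 (-1.08 ± 0.14, adjusted p = 0.000794). Scd1 ran the other way, with 9.38, 9.14 and 9.56 in NOD T0 against 8.91, 9.05 and 8.56 in B10 T0, and just missed the threshold (0.52 ± 0.15, adjusted p = 0.0619). It passed without NOD T0 replicate 2 (0.63). Sc5d had 8.91, 8.79 and 8.68 in NOD T0, against 9.31, 9.31 and 9.25 in B10 T0 (-0.50 ± 0.09, adjusted p = 0.00596). Elovl6 had 7.10, 7.12 and 7.11 in NOD T0, against 7.54, 7.68 and 7.66 in B10 T0 (-0.51 ± 0.11, adjusted p = 0.0124). Abcg1 was lower in NOD by 0.43 (-0.43 ± 0.11, adjusted p = 0.043). For all 6 of these genes the NOD and B10 arrays did not overlap at T0. Of the 32 genes, 6 lay wholly above and 6 wholly below, where 22.8% of all genes were apart (11.1% above, 11.7% below). At T1, 5 lay wholly above and 13 wholly below, where 41.8% of all genes were apart (21.6% above, 20.2% below).

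Markers of other cell types differed between the strains at T0. All 5 erythroid markers were higher in NOD at T0 (median difference 2.38), as were 4 of 9 monocyte and macrophage markers and 3 of 8 neutrophil markers. Lower in NOD were 2 of 5 NK cell markers and 1 of 2 CD8 T cell markers. The part of these cells in the strain differences of the lipid genes was not tested. The erythroid mean separates all NOD from all B10 arrays, and with it as a covariate 149 of all genes were called, beside 1155 without it. In that fit 0 of the 6 genes passed, at differences of 0.39 for Sqle, 0.62 for Fdft1, -0.92 for Scd2, -0.39 for Sc5d, -0.36 for Elovl6 and -0.65 for Abcg1. Omission of NOD T0 replicate 1 ended the calls of Sqle (0.44), Fdft1 (0.44), Elovl6 (-0.51) and Abcg1 (-0.44). Omission of B10 T0 replicate 1 ended those of Sqle (0.43), Fdft1 (0.54) and Abcg1 (-0.46), of B10 T0 replicate 2 those of Fdft1 (0.53), Elovl6 (-0.49) and Abcg1 (-0.46), and of B10 T0 replicate 3 those of Fdft1 (0.49) and Abcg1 (-0.37). Elovl6 also lost its call without NOD T0 replicate 3 (-0.51), and Abcg1 without NOD T0 replicate 2 (-0.48) or 3 (-0.38) and on a common 75th percentile (-0.45). Scd2 and Sc5d kept theirs on omission of each single array. With both B10 arrays of replicate 3 omitted, 1 gene was higher and 3 were lower.

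**Figure D4:**
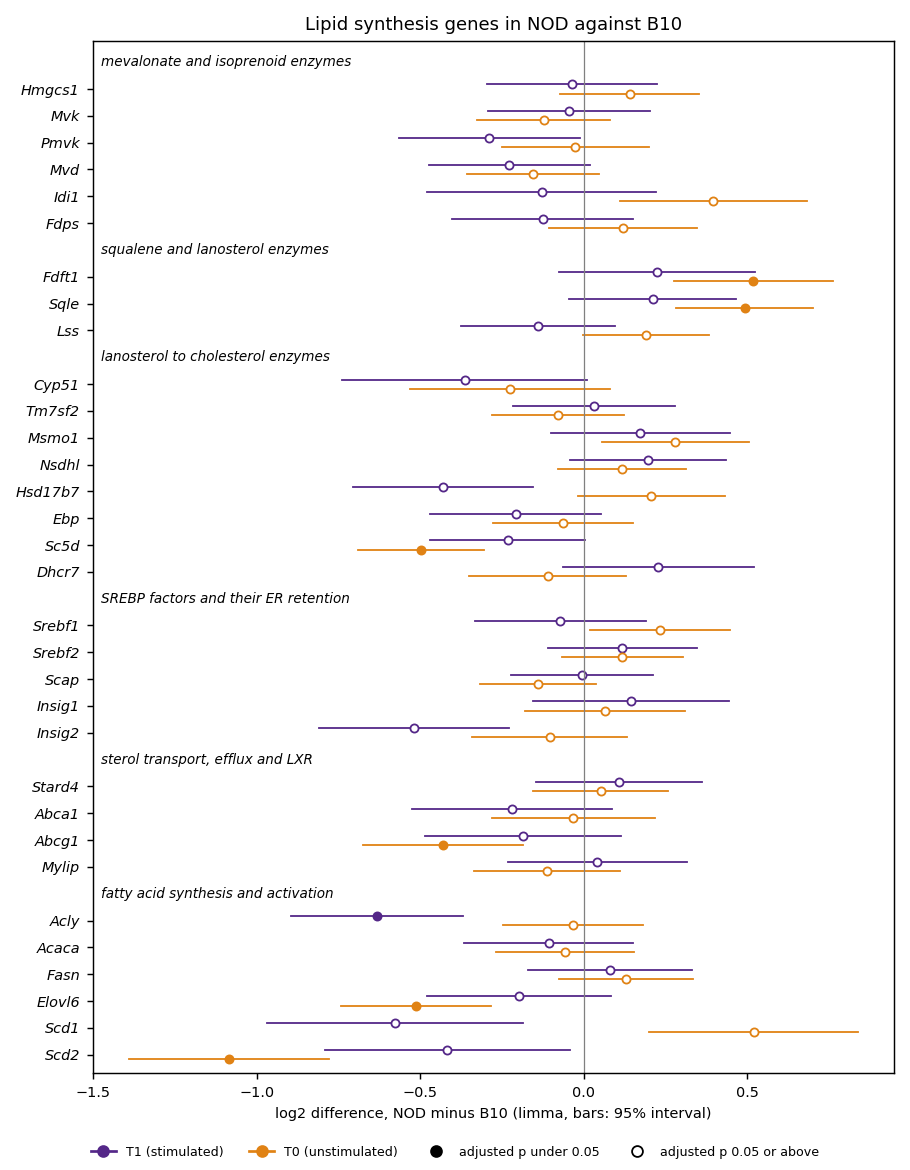
Log2 difference, NOD minus B10 (x axis), for each of the 32 genes, grouped by role, at T1 (purple, upper) and T0 (orange, lower). Points are limma estimates, bars are 95% intervals, and filled points have an adjusted p under 0.05: Acly at T1, and Sqle, Fdft1, Sc5d, Abcg1, Elovl6 and Scd2 at T0.

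The response itself was set against strain with the interaction, the NOD response minus the B10 response. In limma 0 of the 32 genes passed, where 0.246% of all genes did, and 7 had an unadjusted p under 0.05 (9.23% of all genes). Without both B10 arrays of replicate 3 the count was also 0. The largest value was that of Scd1 (-1.10 ± 0.23, adjusted p = 0.095), whose response was -1.55 in NOD and -0.46 in B10, the B10 value not called. It passed with eBayes trend and robust settings (-1.10, adjusted p = 0.048) and with the erythroid covariate (-1.12, adjusted p = 0.0359). Scd2 had 0.67 ± 0.22 (adjusted p = 0.371), Hsd17b7 -0.64 ± 0.16 (adjusted p = 0.194), Acly -0.60 ± 0.16 (adjusted p = 0.2) and Idi1 -0.53 ± 0.21 (adjusted p = 0.477). For Sqle, Fdft1 and Lss the interaction lay between -0.33 and -0.28, with 95% intervals of -0.61 to 0.05, -0.68 to 0.09 and -0.64 to -0.03. None of the 3 passed (adjusted p = 0.608, 0.656 and 0.5), which does not show that the strains responded alike.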

How the data were processed

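The authors measured 10 arrays and deposited log2 intensities, made with RMA in Affymetrix Power Tools, per the submitters' processing notes. RMA corrects background, gives all arrays one distribution and summarises probes to 1 value per probe set, so differences are relative to the bulk of all genes. Versions and options are not given in the sources used here, and log base 2 is read from how far the values spread. Of 35486 probe sets, 21789 have 1 gene symbol in the platform table, 1621 several and 12076 no listed gene.

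Group means of the 4 groups were fitted to all arrays with limma 3.58.1 in R 4.3.3 (6 residual and 6.3 prior degrees of freedom). Tests were two-sided, with Benjamini-Hochberg adjustment over 19938 genes. The procedure was tested on simulated data. Members and lists were chosen with earlier results of these data known. All listed genes may be named, and of the other lipid genes up to the 6 largest calls per contrast. The labels do not tie replicate numbers to animals, so the main fit has no replicate block. The number of arrays limits precision. Alternatives were another scaling, the mean of probe sets, a filter on dim genes, other eBayes settings, fewer arrays, replicate blocks and omission of each array. The erythroid covariate and the omission of both B10 arrays of replicate 3 were added after the data had been seen. Figures were drawn with matplotlib 3.10.9.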

Additional observations from a re-analysis of the deposited data

Results flagged for a closer look

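The stimulated arrays lay on opposite sides of the unstimulated ones for Acly in the 2 strains. In NOD, both T1 arrays (9.46 and 9.50) lay below all T0 arrays (9.51 to 9.59), and in B10 both T1 arrays (9.96 and 10.26) lay above all T0 arrays (9.47 to 9.69). The interaction, which tests this difference, was -0.60 ± 0.16 and did not pass (limma, adjusted p = 0.2).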

How the results depend on the processing

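Of the stimulation calls, 19 of 22 genes in NOD and 18 of 24 in B10 kept their call under every alternative run, and no called gene changed direction. Leaving out single arrays gave 19 to 23 called genes in NOD and 20 to 25 in B10 (5915 to 7071 and 5376 to 6596 of all genes). Between strains, the same omissions gave 0 to 2 at T1, 2 to 6 at T0 and 0 in the interaction, and 184 to 889, 571 to 1306 and 13 to 69 of all genes.
At T1, the called genes numbered 2 among genes above the median mean and with trend and robust eBayes, and 0 with only the arrays compared (128 of all genes) or with the erythroid covariate (126). The last setting, chosen after seeing the data, left 0 called genes and 149 of all genes at T0. In the interaction it gave 1 called gene (82 of all genes), trend and robust eBayes 1 (102), and the common 75th percentile 0 (31). The cause was not tested. Deviations of same-numbered T1 and T0 arrays correlated at -0.014 and 0.219 in NOD and 0.413 and 0.404 in B10. One of these is not above 0.1, the level required of every pair, so the numbers were not taken to pair arrays. As a fixed block of replicate number, shared by both strains, they gave 21 called genes in NOD, 22 in B10, 1 at T1, 6 at T0 and 0 in the interaction. As a random block of strain and number they gave 23, 25, 1, 6 and 0. The fixed block joins same-numbered arrays of both strains, so it does not test pairing within a strain. The fixed block ended the calls of Tm7sf2 in NOD (adjusted p = 0.0661) and of Mvd and Srebf1 in B10 (0.0528 and 0.106), and the random block added Mvd in NOD (0.0499) and Scd1 in B10 (0.0391). The number of arrays limits precision, and signal over background is unknown.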

Other observations

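The other lipid genes were also compared between strains. At T0, 1 of 14 sterol genes, 2 of 18 fatty acid synthesis genes and 0 of 10 oxidation genes were called, beside 5.79% of all genes. At T1 the counts were 0, 0 and 1, beside 3.6% of all genes. Counts this small are not read as a trait of lipid genes. Acss2, which makes acetyl-CoA from acetate, was lower in NOD than in B10 at T0 (log2 difference -1.24, limma, adjusted p = 0.000583). Its value at T1 was -0.72 (adjusted p = 0.0579). Apoe, a lipoprotein component that macrophages also make, was lower in NOD at T0 (-0.73, adjusted p = 0.000507), and so was Hacd3, a dehydratase of fatty acid elongation (-0.51, adjusted p = 0.0092). Acadl, a dehydrogenase of fatty acid oxidation, was lower in NOD at T1 (-0.73, adjusted p = 0.0233). These calls were not tested with the erythroid covariate.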
